A study of Mus musculus with 8 samples.

Results

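Pyruvate made by glycolysis in the cytosol is carried across the inner mitochondrial membrane by the mitochondrial pyruvate carrier, a heterodimer of MPC1 and MPC2. Inside, the pyruvate dehydrogenase complex turns it into acetyl-CoA. Its E1 enzyme is built from PDHA1 and PDHB, its E2 enzyme is DLAT and its E3 enzyme is DLD. The kinases PDK1 to PDK4 phosphorylate PDHA1 and switch the complex off, and the phosphatases PDP1 and PDP2 switch it back on. PCX, pyruvate carboxylase, takes the other route, from pyruvate to oxaloacetate. In fat cells this second route feeds citrate export for fatty acid synthesis and the making of glycerol phosphate.

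The 10 genes described here are MPC1, MPC2, PDHA1, PDHB, DLAT, DLD, PDK1, PDK2, PDK4 and PCX. They were chosen by name from the deposited expression table, which lists 10663 entries, and all 10 were present and passed the filter on low values. Symbols are written in capitals, as the table has them. The samples were 3T3-L1 adipocytes, fat cells made in culture from a mouse fibroblast line. Of the 8 RNA-seq libraries, 4 were labelled miR-690oe, for overexpression of miR-690-5p, and 4 were labelled Con and are called control here. One treatment text, a miR-690 mimic, is attached to all 8 libraries, so what control cells were given is unknown here. Whether the 4 libraries of a group were separate cultures is not stated either, and p-values therefore reflect spread between libraries that may be technical.

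Levels are in CPM, reads per gene scaled to a library total of 1000000 over the listed genes. Depth was 31211349 to 38235522 reads in the miR-690oe libraries and 29773446 to 33816227 reads in the control libraries, and the 10 genes had between 684 and 39954 reads per library. The first principal component held 59.9% of the variance and separated the groups. Replicate 1 of miR-690oe stood furthest from its group: its read counts differed from those of the other 3 by 17.0 to 22.0 times the counting variance per gene, against 9.49 to 11.7 times among those 3 and 3.96 to 8.04 times among controls. The adipocyte markers fit the label, with 11 of 12 listed and summed levels of 10174 to 13526 CPM in miR-690oe and 11810 to 13004 CPM in control libraries. Fibroblast markers, 12 of 13 listed, summed to 10308 to 13733 CPM in miR-690oe and 10556 to 12342 CPM in controls. Macrophage and endothelial markers, 4 of 10 listed, summed to 24.0 to 27.3 CPM in miR-690oe and 27.6 to 31.7 CPM in controls. Single markers did pass the limma test: of fibroblast markers 3 were higher (PRRX1, PDGFRA and PDGFRB, 1.13-fold to 1.25-fold) and S100A4 was lower (0.823 of control), of adipocyte markers CIDEC (0.875) and CFD (0.861) were lower, and of macrophage and endothelial markers CD14 (0.874) and LYZ2 (0.833) were lower. With the length and GC trend removed these 8 missed the threshold. With 1 library left out, limma adjusted p reached 0.120 (CIDEC), 0.140 (CFD), 0.118 (CD14), 0.142 (LYZ2), 0.0815 (PDGFRB) and 0.0598 (PDGFRA). PRRX1 and S100A4 kept their calls there. DLK1, also on the fibroblast list and picked with its values known, was lower with the trend removed (log2 fold change -0.21, adjusted p = 0.0327). As measured, DLK1 had -0.12 (0.186). The part of these markers in the results was not tested. In such bulk samples, fewer cells of a type and less RNA per cell cannot be told apart. NADK, which published work names as a target of miR-690, averaged 204 ± 5.17 CPM in miR-690oe and 224 ± 8.36 CPM in controls (SD, n = 4 each; limma adjusted p = 0.0174, lost without control replicate 2 at 0.0695 or control replicate 4 at 0.0612).

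A microRNA lowers mRNAs that pair with its seed, bases 2 to 8, mostly in the 3' UTR. The mature mouse miR-690 sequence from RefSeq (GRCm38.p6, chromosome 16, 28599940 to 28599961, minus strand) is shown with its seed in capitals. Below it stand 23-base windows of the 3' UTRs with a full seed match, TAGCCTT in capitals, for the single match among the 10 genes (PDK4), for the single match among the other genes of the complex (PDPR), for BCKDK, a kinase related to the PDK family that is described further on, and for NADK. The windows are from GENCODE M21 transcripts on GRCm38, the build the submitters name as mm10.
miR-690: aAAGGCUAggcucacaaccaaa
PDK4, chr6:5483503-5483525, minus strand: aatcaaaaTAGCCTTccctatta
PDPR, chr8:111135894-111135916, plus strand: tccattctTAGCCTTttagaaga
BCKDK, chr7:127909345-127909367, plus strand: gaaaacttTAGCCTTtccaggta
NADK, chr4:155589557-155589579, plus strand: ggctgaccTAGCCTTgacaaacc

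In the longest coding transcript of each gene, 1 of the 10 genes (10.0%) held the seed match in its 3' UTR, against 1238 of 10365 listed genes with a 3' UTR (11.9%). The PDK4 match lay at base 1932 of a 3' UTR of 2098 bases, close to its end, and the PDPR match at base 890 of 2062. Of the other genes named here for a change, NR3C1 and PDGFRA also held 1 match each, and both were higher in miR-690oe. The BCKDK window was added with the values of that gene known. On the lists used here, CEBPA, FKBP5, GPT2, ME1, RXRA and SLC16A1 also held 1 match each and were not called. A letter match is a description and not a measured site of binding.

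The 10 genes changed little between the groups. Of the 10, 0 rose and 2 fell, MPC2 and PDK2, in a limma fit across all genes with Benjamini-Hochberg adjustment and a threshold of 0.05. At an unadjusted p under 0.05 there were 3, with MPC1 added. Over all 10658 genes tested, 26.0% were called higher and 17.4% lower in miR-690oe, 43.4% in all. The median length of the 10 was 2696 nt. Genes in that length class, 2652 to 3632 nt, were 13.7% higher and 8.81% lower, so 2 of 10 called is near the background. Fold changes of the 10 genes ran from 12.1% lower (MPC2) to 6.99% higher (PDK1). The median absolute log2 fold change was 0.085 for the 10 genes and 0.13 over all genes, and the median signed value was -0.0017 for the 10 and 0.021 over all. Groups did not overlap for the same 2 genes, against 38.3% of all genes tested. By the authors' deposited table, a false discovery rate under 0.05 was reached by 3 of the 10, all lower (MPC2 0.00145, PDK2 0.00315 and MPC1 0.0333), where 24.7% of all entries were higher and 20.6% lower.

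**Figure D1:**
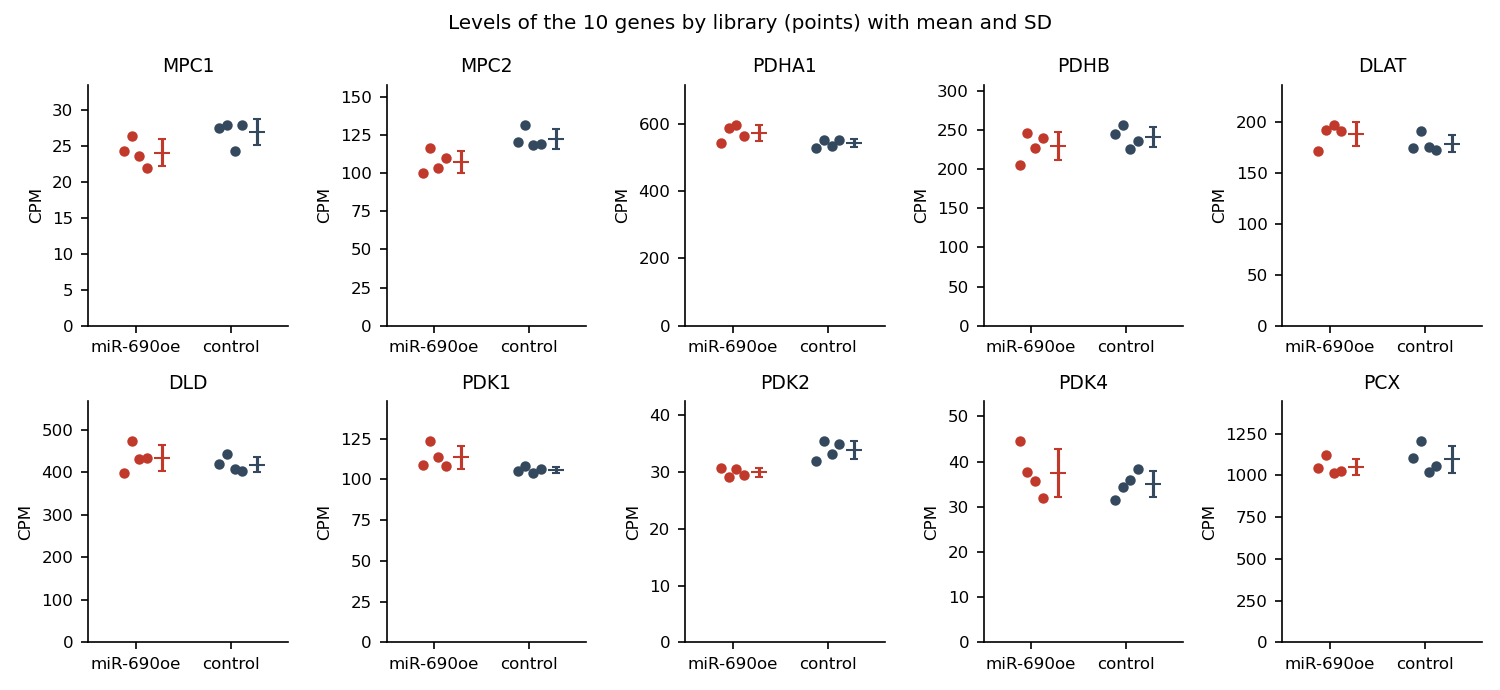
CPM of each of the 10 genes in the 4 miR-690oe libraries (red, left) and the 4 control libraries (dark, right), with group mean and SD beside the points and axes from 0. MPC2 and PDK2 are the genes whose points do not overlap between groups, and PDK4 has the widest spread in miR-690oe, 31.9 to 44.5 CPM.

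Both carrier genes were lower on average in miR-690oe, and MPC2 passed the test. MPC2 stood at 100.2, 117, 103 and 109.7 CPM in the miR-690oe libraries, against 120.2, 132, 118 and 119 CPM in the control libraries. Every miR-690oe library lay below every control library, by a narrow margin between the highest of the first and the lowest of the second. MPC2 fell by 0.19 on the log2 scale, with an SE of 0.053 and a limma adjusted p of 0.00968, and that p was 0.00388 to 0.0446 with any 1 library left out. The call was lost in the 3 fits that remove a trend over transcript length and GC content, described below, with log2 fold changes of -0.00047 to 0.0051 and adjusted p of 0.948 to 0.996. MPC1, its partner, had 24.2, 26.4, 23.7 and 21.9 CPM in miR-690oe, against 27.6, 27.9, 24.3 and 27.9 CPM in controls. Here the groups overlapped, since control replicate 3 lay within the miR-690oe range. Its log2 fold change of -0.16 ± 0.067 missed the threshold (limma adjusted p = 0.0636). MPC1 passed it with trimmed-mean (0.042), median-of-ratios (0.0379) or quantile scaling (0.0192), without control replicate 3 (0.0242) and without miR-690oe replicate 2 (0.0277). The ratio of MPC1 to MPC2, in CPM, was 0.224 ± 0.0177 in miR-690oe and 0.220 ± 0.0138 in controls (SD, n = 4 each), so the balance of the 2 carrier transcripts moved by less than its spread. Mpc1 lies on chromosome 17 from 8282904 to 8297661, and Mpc2 on chromosome 1 from 165460637 to 165481214, both on the plus strand of GRCm38. A processed pseudogene of Mpc1 is annotated, and reads shared with it could have been split in the authors' counting.

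None of the 4 enzyme subunits passed the test, and their intervals took in changes of either sign. PDHA1, the E1 subunit that the kinases phosphorylate, averaged 573 ± 24.0 CPM in miR-690oe and 542 ± 12.3 CPM in controls over 4 libraries each (± SD). For PDHA1 the log2 fold change of 0.081 had a 95% confidence interval of -0.0097 to 0.17 (limma adjusted p = 0.139). PDHB, its partner, averaged 229.6 ± 17.8 CPM in miR-690oe and 241 ± 13.0 CPM in controls, with a log2 fold change of -0.071 and an interval of -0.19 to 0.047 (adjusted p = 0.319). DLAT, which passes the acetyl group to coenzyme A, averaged 188 ± 11.5 CPM in miR-690oe and 178 ± 8.38 CPM in controls, and DLD, which reoxidizes the lipoyl arm, 434 ± 30.3 CPM in miR-690oe and 418 ± 17.9 CPM in controls. Their log2 fold changes of 0.074 and 0.053 had adjusted p of 0.25 and 0.422. In each of these 4 genes the groups overlapped. Without miR-690oe replicate 1, PDHA1 (log2 fold change 0.11, adjusted p = 0.0475) and DLAT (0.12, 0.0415) passed, while MPC2 (-0.15, 0.0243) and PDK2 (-0.19, 0.0145) kept their calls.

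As measured, the 2 E1 partners leaned apart. The CPM ratio of PDHA1 to PDHB was 2.64, 2.39, 2.63 and 2.36 in miR-690oe, against 2.16, 2.15, 2.36 and 2.34 in controls. The groups overlapped at a single point, where control replicate 3 stood just above miR-690oe replicate 4. The ratio of DLAT to PDHB was 0.831, 0.779, 0.868 and 0.799 in miR-690oe, against 0.71, 0.743, 0.777 and 0.731 in controls, and its groups did not overlap. These ratios are descriptions with no test. PDHB has the shortest transcript of the 3 (1513 nt, against 2848 nt for PDHA1 and 4035 nt for DLAT), which bears on the length trend given below. With that trend removed, the log2 fold changes were 0.039 for PDHA1, 0.015 for PDHB and -0.029 for DLAT. PDHA1 and PDHB then had the same sign, and DLAT no longer lay above PDHB.

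Of the kinases, PDK2 fell and PDK1, PDK3 and PDK4 did not pass the test. PDK2, a widely expressed isoform, had 30.7, 29.1, 30.6 and 29.5 CPM in miR-690oe, against 32.0, 35.5, 33.3 and 35.0 CPM in controls. All miR-690oe libraries were below all control libraries, and they lay close together. PDK2 fell by 0.18 on the log2 scale, with an SE of 0.053 and a limma adjusted p of 0.0138, and the call was lost without control replicate 2 (-0.16, adjusted p = 0.0542). It was also lost in the 3 fits that remove the length and GC trend (adjusted p of 0.139 to 0.269). PDK1, a target of hypoxia-inducible factor, averaged 114 ± 7.03 CPM in miR-690oe and 106 ± 1.90 CPM in controls (log2 fold change 0.097, adjusted p = 0.11), and passed with array weights (0.12, adjusted p = 0.0426). PDK4, the isoform raised by fasting, fatty acids and glucocorticoids, had 44.5, 37.7, 35.7 and 31.9 CPM in miR-690oe, against 31.4, 34.4, 35.9 and 38.4 CPM in controls. Its groups overlapped over most of their range, and its coefficient of variation of 14.1% in miR-690oe and 8.38% in controls was the widest of the 10 genes in both groups. The log2 fold change was 0.089 with an interval of -0.089 to 0.27 (adjusted p = 0.414), and it was 0.0033 without miR-690oe replicate 1.

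Per transcript length, PDK3 and PDK1 made up most of the kinase message. Each isoform's CPM was divided by the length of its longest coding transcript and given as a share of the 4. PDK3 held 37.3 ± 1.22% in miR-690oe and 37.9 ± 1.33% in controls (SD, n = 4 each). PDK1 held 29.8 ± 1.31% in miR-690oe and 27.8 ± 0.557% in controls, and PDK4 14.6 ± 1.86% in miR-690oe and 13.7 ± 0.954% in controls. PDK2 held 18.5%, 17.2%, 18.6% and 18.6% in miR-690oe, against 19.8%, 21.5%, 20.3% and 20.8% in controls, which did not overlap. Relative to the mean CPM of PDHA1 and PDHB, PDK2 stood at 0.0749 ± 0.00506 in miR-690oe and 0.0868 ± 0.00266 in controls, PDK1 at 0.283 ± 0.012 in miR-690oe and 0.271 ± 0.00243 in controls, and PDK4 at 0.0939 ± 0.0173 in miR-690oe and 0.0896 ± 0.00763 in controls. Neither the shares nor these ratios were tested.

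PCX had the highest level of the 10 genes and did not pass the test. It averaged 1053 ± 48.1 CPM in miR-690oe and 1097 ± 80.3 CPM in controls (SD, n = 4 each), a log2 fold change of -0.057 with an interval of -0.17 to 0.056 (limma adjusted p = 0.412). It had 1045, 1123, 1017 and 1027 CPM in miR-690oe, against 1105, 1205, 1018 and 1059 CPM in controls, so the groups overlapped over most of their range. With quantile normalization its sign changed (0.017).

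The levels per length spanned a wide range within the pathway. In CPM per kb, PCX stood at 254 ± 11.6 in miR-690oe and 264 ± 19.4 in controls (SD, n = 4 each), PDHA1 at 201 ± 8.43 in miR-690oe and 190.2 ± 4.33 in controls, DLD at 171 ± 11.9 in miR-690oe and 164 ± 7.02 in controls, and PDHB at 152 ± 11.8 in miR-690oe and 159 ± 8.59 in controls. In controls the ranges of DLD and PDHB overlapped, but within every library of both groups DLD stood above PDHB. MPC2 followed with 105 ± 7.03 in miR-690oe and 119 ± 6.12 in controls. DLAT had 46.5 ± 2.84 in miR-690oe and 44.2 ± 2.08 in controls. PDHX, the E3-binding protein, had 42.6 ± 3.45 in miR-690oe and 41.4 ± 1.49 in controls. The ranges of DLAT and PDHX overlapped, but within every library DLAT stood above PDHX. MPC1 stood far below its partner, at 25.0 ± 1.94 in miR-690oe and 28 ± 1.84 in controls. At the low end were PDK1 (21.9 ± 1.35 in miR-690oe and 20.4 ± 0.367 in controls), PDK2 (13.3 ± 0.352 in miR-690oe and 15.1 ± 0.707 in controls) and PDK4 (10.8 ± 1.52 in miR-690oe and 10.1 ± 0.843 in controls). These values depend on the annotated length, which need not be that of the isoform these cells use.

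**Figure D2:**
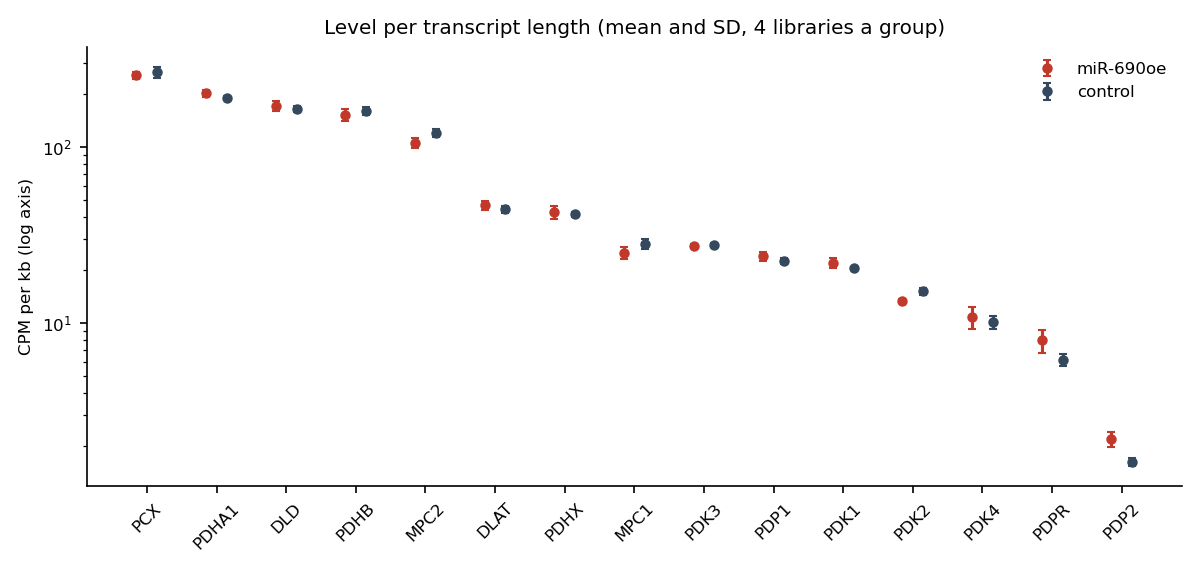
Mean level per transcript length (CPM per kb, log axis) with SD over 4 libraries a group, for the 10 genes and the other 5 genes of the complex, ordered by the control mean, with miR-690oe (red) left of control (dark) for each gene. PCX is highest at 254 in miR-690oe and 264 in controls, and PDP2 lowest at 2.19 in miR-690oe and 1.62 in controls.

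Of the other 5 genes of the complex, 2 rose and 0 fell, where 26.0% of all genes were higher. The median length of the 5 was 4201 nt, in a length class with 37.5% higher, so 2 of 5 is near the background. The 2 that rose, PDP2 and PDPR, missed the threshold once the length trend given below was removed. PDP2, a catalytic subunit of pyruvate dehydrogenase phosphatase, had 12.8, 14.1, 11.2 and 11.9 CPM in miR-690oe, against 8.76, 9.50, 8.90 and 9.73 CPM in controls. No library of one group reached the range of the other, and PDP2 rose 1.33-fold (log2 fold change 0.41 ± 0.079, SE, limma adjusted p = 0.000651). PDPR, the regulatory subunit of the phosphatase, had 44.8, 39.4, 42.1 and 31.1 CPM in miR-690oe, against 31.4, 31.1, 27.1 and 32.8 CPM in controls. Replicate 4 of miR-690oe lay within the control range and the other 3 lay above it. PDPR rose 1.27-fold (log2 fold change 0.35 ± 0.090, adjusted p = 0.00559), and it was among the minority of genes that hold the seed match. PDP1, the more abundant catalytic subunit, averaged 100.2 ± 6.35 CPM in miR-690oe and 94.4 ± 4.08 CPM in controls (adjusted p = 0.196). PDK3 averaged 57.8 ± 1.25 CPM in miR-690oe and 58.8 ± 1.5 CPM in controls (adjusted p = 0.694), and PDHX 107 ± 8.65 CPM in miR-690oe and 104 ± 3.74 CPM in controls (adjusted p = 0.612). The summed CPM per kb of the 4 kinases over that of PDP1 and PDP2, a ratio chosen after the values were seen and not tested, was 2.82 ± 0.151 in miR-690oe and 3.05 ± 0.113 in controls.

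**Figure D3:**
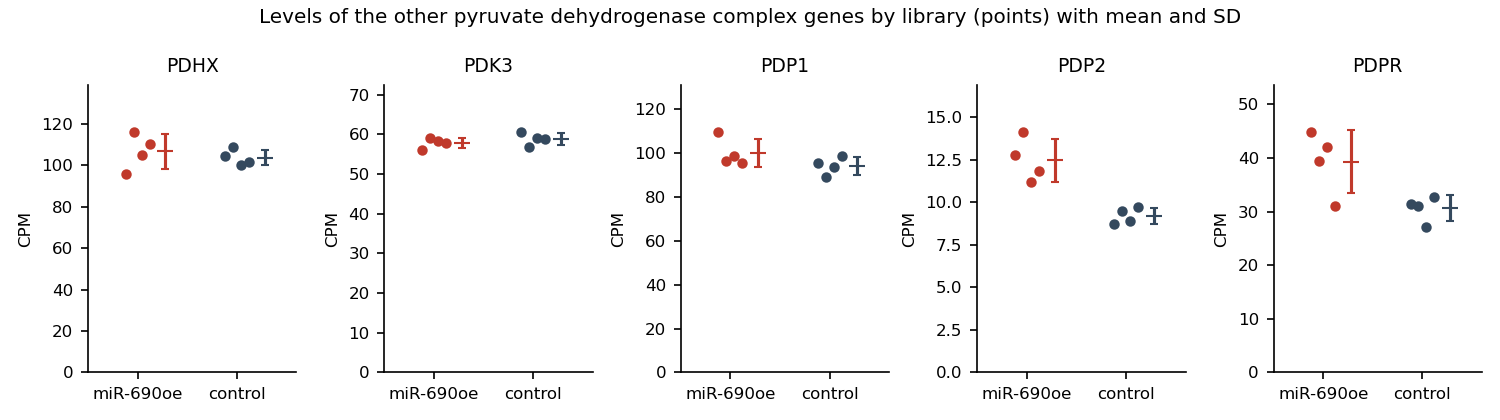
CPM of PDHX, PDK3, PDP1, PDP2 and PDPR in the 4 miR-690oe libraries (red, left) and the 4 control libraries (dark, right), with mean and SD beside the points and axes from 0. The PDP2 groups do not overlap (11.2 to 14.1 against 8.76 to 9.73 CPM), and 1 miR-690oe library of PDPR lies among the controls.

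Across the transcriptome, fold changes followed transcript length, and the pyruvate genes followed it too. Spearman's rho between log2 fold change and length was 0.73 across 10610 genes, which are not independent replicates. With genes put in 5 equal classes by length, of the shortest class (174 to 1755 nt), 50.9% were called lower and 0.99% higher in miR-690oe, and of the longest class (5068 to 123179 nt) 1.08% were called lower and 74.5% higher. MPC1 (961 nt), MPC2 (1025 nt) and PDHB (1513 nt) belonged to the shortest class, and PDK1 (5185 nt) and PDP2 (5692 nt) to the longest. Among the 10 genes rho was 0.78, and among the 15 genes of carrier, complex and PCX 0.87, given as descriptions over genes that share the same libraries. What made fold changes follow length was not tested.

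**Figure D4:**
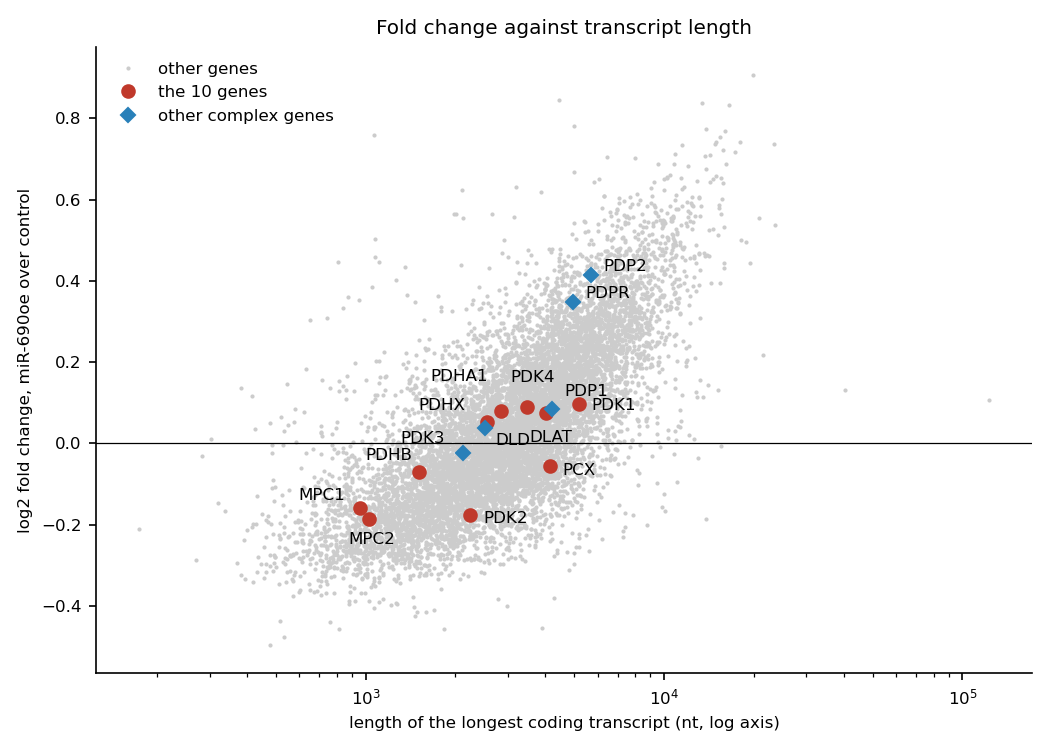
Log2 fold change, miR-690oe over control, against the length of the longest coding transcript (log axis), for all genes with a length (grey), the 10 genes (red circles) and the other 5 genes of the complex (blue diamonds). MPC1 and MPC2 sit at the short, negative end of the cloud, and PDP2 and PDPR at its long, positive end, while PDK2 and PCX lie below its middle.

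With a smooth trend over length and GC content subtracted in each library, 0 of the 10 genes and 0 of the other 5 passed the test, where 7.39% of all genes were higher and 9.09% lower. Over the 10 genes the log2 fold change then ran from -0.11 to 0.039, and the median absolute value was 0.022 against 0.073 over all genes. MPC2 had 0.0051 (interval -0.094 to 0.104, limma adjusted p = 0.958), since the trend fitted at its length and GC content was -0.19, about the whole of its change. For MPC1 the trend was -0.15 and the rest -0.015 (adjusted p = 0.913). PDK2 kept more, with -0.10 after subtraction (interval -0.21 to 0.0053, adjusted p = 0.185) and a fitted trend of -0.072. PDP2 and PDPR kept log2 fold changes of 0.20 and 0.19, with intervals of 0.045 to 0.36 and 0.010 to 0.36, and missed the threshold (adjusted p = 0.0747 and 0.138). PDK1 and PCX, both long, had -0.095 and -0.11 (adjusted p = 0.161 and 0.22).

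**Figure D5:**
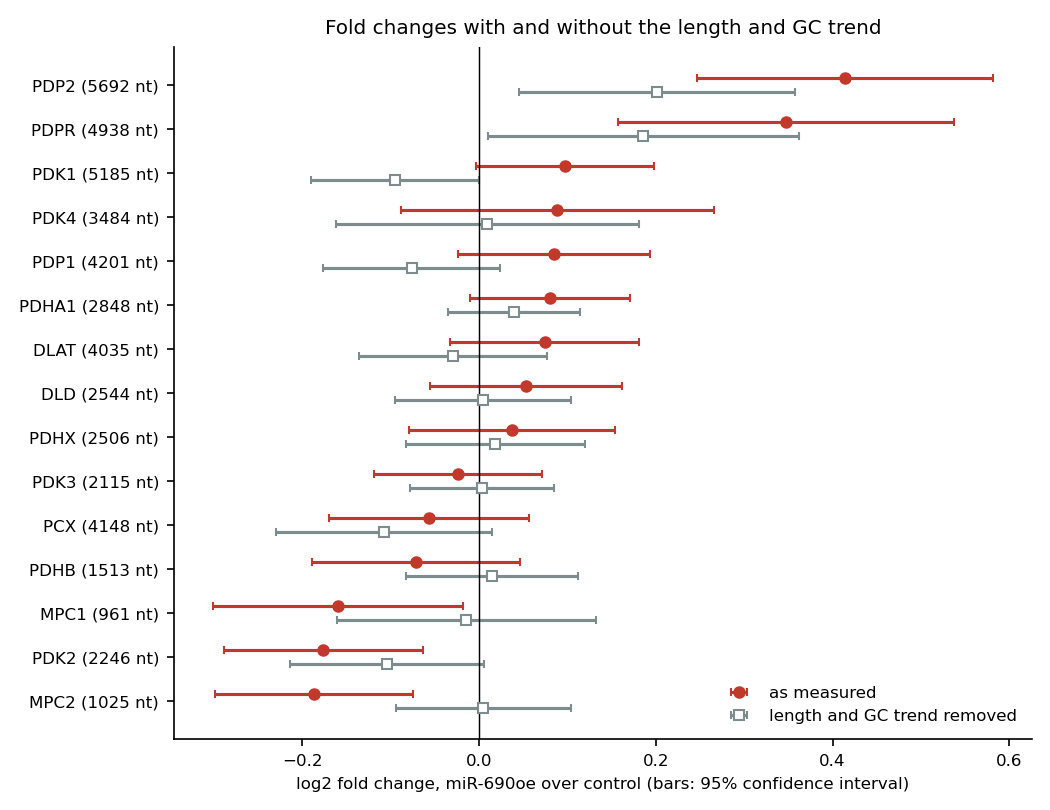
Log2 fold change, miR-690oe over control, with 95% confidence interval for the 15 genes, as measured (red circles) and after subtraction of the trend over length and GC (grey open squares), with transcript length beside each symbol. MPC2 goes to 0.0051 once the trend is removed, PDK2 to -0.10 and PDP2 to 0.20.

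Genes around the complex were described from lists by role. Cofactor genes, which make or carry lipoate, thiamine diphosphate and biotin, had 1 higher and 1 lower of 8 measured (median log2 fold change -0.058). Over all genes tested, 26.0% were higher and 17.4% lower. The median length of this list was 2642.5 nt, in a length class with 3.53% higher and 22.5% lower. HLCS, which attaches biotin to PCX and other carboxylases, rose 1.22-fold (limma adjusted p = 0.00161), and BTD, which recycles biotin, fell to 0.884 of control (0.00805). Both missed the threshold with the trend removed (adjusted p = 0.127 and 0.101). LIAS, the lipoate synthase, was picked with its values known, and its log2 fold change was -0.11 (adjusted p = 0.0765). It was -0.15 (0.0238) with the trend removed by the longest transcript, and -0.053 (0.402) with lengths of principal transcripts.

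The related complexes for 2-oxoglutarate, branched-chain keto acids and glycine, which share DLD or similar parts, had 3 higher and 3 lower of 9 (median -0.014). Over all genes tested, 26.0% were higher and 17.4% lower. The median length of this list was 3301 nt, in a length class with 13.7% higher and 8.81% lower. BCKDK, the kinase that switches off the branched-chain complex, had 77.9, 83.0, 83.4 and 83.6 CPM in miR-690oe, against 92.5, 97.4, 93.6 and 92.8 CPM in controls, with no overlap. BCKDK fell by 0.20 ± 0.044 on the log2 scale (SE, limma adjusted p = 0.00199), still had -0.20 with the trend removed (adjusted p = 0.00376), and passed in all 21 alternatives run. BCKDHA, the E1 alpha subunit of that complex, fell to 0.843 of control (adjusted p = 0.000304, and 0.029 with the trend removed). With the replicate number added as a block to the trend-removed fit, the BCKDHA call was lost (adjusted p = 0.0520). DBT and BCKDHB, the E2 and E1 beta subunits of the branched-chain complex, were picked with their values known. DBT rose 1.15-fold (adjusted p = 0.022) and BCKDHB did not pass (0.303). With the trend removed, DBT and BCKDHB both missed the threshold (0.215 and 0.769). PPM1K, the phosphatase that switches the complex on, rose 1.25-fold (0.00169) and DHTKD1, a relative of the 2-oxoglutarate enzyme, 1.34-fold (0.000399). Neither passed with the trend removed (0.497 and 0.0627).

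Genes that supply or use pyruvate had 0 higher and 3 lower of 9 measured (median -0.071), where 26.0% of all genes were higher and 17.4% lower. The median length of this list was 2432 nt, in a length class with 3.53% higher and 22.5% lower. The lactate dehydrogenase gene LDHB stood at 0.862 of control (limma adjusted p = 0.00316), BSG, the chaperone of lactate and pyruvate transporters, at 0.863 (0.000384), and PKM, the pyruvate kinase gene, at 0.905 (0.0115). For citrate export and the exchange of pyruvate products, 1 rose and 5 fell of 10 (median -0.14). This list had a median length of 2090 nt, in the same length class. SLC25A1, the citrate carrier, stood at 0.859 of control, MDH2 at 0.869, SLC25A11 at 0.885 and GOT2 at 0.902 (adjusted p = 0.00737, 0.00503, 0.0049 and 0.0084). All 4 outer membrane genes fell (median -0.16, with 17.4% of all genes lower). Their median length was 1688.5 nt, in the shortest length class, with 50.9% lower. VDAC1, VDAC2 and VDAC3, the channels that let metabolites reach the carrier, fell to 0.913, 0.911 and 0.884 of control, and TSPO to 0.833. The VDAC2 call did not hold with miR-690oe replicate 1 left out (adjusted p = 0.0543), nor with either control replicate 1 (0.0518) or 2 (0.0786). With the trend removed, the 11 genes named above from these 3 lists missed the threshold, with adjusted p of 0.0978 (GOT2) to 0.488 (TSPO). PCK2, mitochondrial phosphoenolpyruvate carboxykinase, was the exception in the citrate list. It was picked with its values known, and had -0.10 (adjusted p = 0.0611) as measured and -0.21 (0.00367) with the trend removed.

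Regulators linked to PDK genes had 6 higher and 0 lower of 12 measured (median 0.15), where 26.0% of all genes were higher. The median length of this list was 4291 nt, in a length class with 37.5% of genes higher. NR3C1, the glucocorticoid receptor, rose 1.25-fold, FOXO1 1.18-fold and HIF1A 1.18-fold (limma adjusted p = 0.000193, 0.000851 and 0.00233). With the trend removed they missed the threshold (adjusted p = 0.492, 0.191 and 0.511), and FOXO1 then stood at -0.083. PPARGC1B, which encodes a coactivator of mitochondrial gene expression, was 1.32-fold higher (adjusted p = 0.000486), kept a log2 fold change of 0.38 (0.00149) with the trend removed, and passed in all 21 alternatives. PDK4, which several of these regulators are known to raise, did not pass the test under any of the 21.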

How the data were processed

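RNA-seq libraries of 4 miR-690oe and 4 control samples were compared. Tools named by the submitters' processing notes were Trimmomatic 0.38 and edgeR 3.20.9, with the build mm10 and no role for each. No aligner, counter or strand setting is given in these sources. The deposited table is named as RPKM, but its 8 library columns each sum to 1000000, so the values deposited by the authors were taken as CPM. Per the file headers the authors' table also holds a log2 fold change, an average log2 CPM, a likelihood ratio (a score), and a p-value with its false discovery rate. All values were whole multiples of 1 step per column, within 0.1 read, which gave the depths. The planned count models were not run.

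Genes with at least 0.5 CPM in at least 4 libraries were kept (10658). Tests across all genes used log2(CPM + 0.5) in limma 3.58.1 (R 4.3.3), lmFit and eBayes with trend, two-sided, with Benjamini-Hochberg adjustment over all genes kept and a threshold of 0.05; fold changes are on that scale and understate those of low genes. The planned design assumed RPKM, and the same test was kept. Lengths, GC content and 3' UTRs came from the longest basic coding transcript of GENCODE M21 (99.5% of entries matched). The trend fit subtracted natural splines (5 degrees of freedom each) over log2 length and GC content from each library's deviations, for 10610 genes. The limma fit was checked on simulated counts, with changes larger than those of the genes described here and no length trend. That check does not cover the trend fit or changes as small as these.

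The members, gene lists and tests were chosen with earlier results of these data known. Named genes were the 10 members, the 5 other complex genes, and in each list up to 4 genes with the lowest adjusted p past the threshold (at least 2 in all); others are marked. No 2 libraries of a group agreed within counting noise. Counting errors cover reads, not molecules.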

Additional observations from a re-analysis of the deposited data

Results flagged for a closer look

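Among 100 groups of 4 libraries checked, 5 had 1 library far from the other 3 (Dixon's rule at 95%), about the 1 in 20 that chance gives. MPC1 in controls had 24.3 CPM in replicate 3, with the next value at 27.6 CPM. MPC2 in controls had 132 CPM in replicate 2, with the next at 120.2 CPM, and the MPC2 call held without that library (adjusted p = 0.0446). DLAT in controls had 191 CPM in replicate 2, next to 176 CPM. BCKDK in miR-690oe had 77.9 CPM in replicate 1, next to 83.0 CPM. PDGFRA, a fibroblast marker, had 494 CPM in 1 control library, next to 586 CPM.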

How the results depend on the processing

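The count of called genes over the transcriptome was 4626 and fell to 1748 with the length and GC trend removed, 1213 with that and the replicate block, and 1860 with the trend of principal transcripts, an alternative chosen after seeing the data. Among the 10 genes the count called lower was 2 and became 0 in each of these 3 fits, and 1 to 3 with 1 library left out. The count called higher was 0 and became 1 with quantile normalization (PDHA1), 1 with array weights (PDK1), and 0 to 2 with 1 library left out. Higher genes made up 59.9% of all calls, 46.4% with quantile normalization and 44.9% with the trend removed. With the trend removed, log2 fold changes changed sign for MPC2 (0.0051), PDHB (0.015), DLAT (-0.029), PDK1 (-0.095), PDK3 (0.0032), PDP1 (-0.076), FOXO1 (-0.083) and PDGFRA (-0.018), with the same values under the replicate block. With the trend of principal transcripts, they did for PDHB (0.0039), DLAT (-0.041), DLD (-0.0072), PDK1 (-0.10), PDK4 (-0.00050), PDP1 (-0.085), FOXO1 (-0.087) and PDGFRA (-0.023). Quantile normalization turned PCX (0.017) and PDHX (-0.0079), and PDHX ran from -0.0034 to 0.088 with 1 library left out. The cause was not tested. Deviations of same-numbered libraries from their group means correlated at -0.30, 0.31, -0.10 and -0.33. These values cannot settle whether the numbers pair libraries, since the deviations within a group depend on each other. The replicate block alone gave 2 genes lower and 0 higher. With the trend removed, the replicate block ended the calls of BCKDHA (adjusted p = 0.0520) and NADK (0.0699). Of the 945 alternatives for named genes, 785 kept direction and side of the threshold. The planned count models were not run; reads recovered from the CPM steps were used for depth and counting variance only. MPC1, PDK2 and PDK4 rest on the fewest reads of the 10 genes, 684 to 1702 per library. The SE of the log2 fold change was 0.067 for MPC1 and 0.084 for PDK4. For PDK2 it was 0.053, as for PCX with 30323 to 39954 reads.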
